A study of Rattus norvegicus with 10 samples.

Results

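Transcripts of 7 subunits of the GABA-A receptor were followed in the left hippocampus of rats: the alpha subunits Gabra2, Gabra3, Gabra4 and Gabra5, the beta subunits Gabrb1 and Gabrb2, and the delta subunit Gabrd. The genes were taken by symbol from tables of 17168 genes, and all 7 passed the filter on low counts that left 12161 genes for testing. The animals were 10 male TgF344-AD rats (genotype label Tg-AD), a transgenic model of Alzheimer's disease, all aged 11 months. The untreated group (5 rats) ate plain rodent chow, and the RG2833 group (5 rats) ate chow with 750 mg of RG2833 per kg from 5 months of age for 6 months. RG2833 blocks HDAC1 and HDAC3, which are enzymes that take acetyl groups off histones. All rats in both groups carry the transgenes, so neither group is wild type, and the comparison asks what the drug changes in transgenic males. Each library is 1 rat, from whole left hippocampus. The times come from a sentence of the design text that calls the drug ibudilast, while the title and the labels call it RG2833, the name used here.

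GABA-A receptors are chloride channels built of several subunits around a pore, and they carry most of the fast inhibition in the brain. Receptors with alpha2 or alpha3 together with a gamma subunit sit mainly at synapses, where brief pulses of GABA open them. Receptors with delta, usually together with alpha4 in the forebrain, and many with alpha5 lie outside synapses and answer low, lasting levels of GABA, which gives tonic inhibition. In the hippocampus alpha5 is abundant in pyramidal cells of CA1 and CA3, delta and alpha4 are abundant in dentate granule cells, and alpha3 is known more for neocortex and other regions.

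Values are CPM, reads of a gene relative to the size of its library after TMM scaling (trimmed mean of M-values, which adjusts for differences in makeup between libraries). CPM grows with transcript length, which the tables do not give, so levels are compared within a gene and not between genes. Total expected counts per library ran from 15118203 to 18533520. In bulk tissue, fewer cells of a type and less RNA per cell cannot be told apart. Markers of the dentate gyrus, CA1 and CA3 fixed for the tissue were present in the table for 25 of 26 entries; of these Tdo2 was at 0 in all 10 libraries, Lct, Iyd and Coch had medians under 1 CPM, and Dsp was not found by that name. Libraries differed in regional markers. Prox1, a transcription factor of dentate granule cells, was at 4.30 CPM in untreated 3 and from 21.5 to 50.5 CPM in the other 9 libraries. Cpne4, used here as a marker of CA3, was at 66.3 CPM in untreated 3, 119.9 in RG2833 4, 73.9 in RG2833 5 and from 222 to 288 CPM in the rest. Cux2, a marker of upper neocortical layers, was at 141, 92.4 and 106 CPM in the same 3 libraries and from 28.3 to 59.9 CPM in the rest. These 3 markers were picked from the lists after their values were seen, and others on the same lists ran the opposite way. In untreated 3 the dentate markers Marcksl1 (256 CPM) and Calb1 (90.6) were at their highest of the 10 libraries. The neocortical marker Rasgrf2 was lowest in untreated 3, RG2833 5 and RG2833 4 (34.7, 44.3 and 58.6 CPM, against 80.6 to 109 elsewhere), and the CA3 marker Nnat was highest in RG2833 4 (725 CPM), though not in untreated 3 (554) or RG2833 5 (465). The CA3 markers Bok and Grik4 were lowest in the same 3 libraries as Cpne4. Bok was at 34.0, 43.3 and 38.9 CPM in untreated 3, RG2833 4 and RG2833 5 against 72.5 to 92.7 CPM elsewhere, and Grik4 at 29.5, 77.7 and 59.1 CPM against 99.8 to 137 CPM. Untreated 2 and RG2833 1 stood apart in a different way, with summed choroid plexus markers of 8113 and 9498 CPM against 9.41 to 287 CPM in the other libraries. Values without these libraries are given below or in the closing section.

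Over all 10 libraries Gabra3 and Gabra4 took opposite courses and Gabrd followed neither. This rested on untreated 3, RG2833 4 and RG2833 5. Over the other 7 libraries Pearson r of log2 CPM was -0.048 for Gabra3 with Gabra4 and 0.849 for Gabra4 with Gabrd. Neither of these passed adjustment. Promoter sequences are shown for these 3 genes, chosen by their courses over all 10 libraries. They are the 250 bases before the RefSeq gene start, 5′ to 3′ in the direction of the gene, on the GRCr8 build, at chrX:155543871-155544120 (- strand) for Gabra3, chr14:36944497-36944746 (+ strand) for Gabra4 and chr5:171252710-171252959 (- strand) for Gabrd. Capitals mark the GC box letters GGGCGG or their reverse complement, and the TATA letters TATAAA or their reverse complement.
Gabra3: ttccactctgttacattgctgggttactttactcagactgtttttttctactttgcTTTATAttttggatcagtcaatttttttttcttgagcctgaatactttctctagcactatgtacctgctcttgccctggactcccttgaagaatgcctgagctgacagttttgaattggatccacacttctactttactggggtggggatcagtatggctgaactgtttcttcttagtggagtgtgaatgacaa
Gabra4: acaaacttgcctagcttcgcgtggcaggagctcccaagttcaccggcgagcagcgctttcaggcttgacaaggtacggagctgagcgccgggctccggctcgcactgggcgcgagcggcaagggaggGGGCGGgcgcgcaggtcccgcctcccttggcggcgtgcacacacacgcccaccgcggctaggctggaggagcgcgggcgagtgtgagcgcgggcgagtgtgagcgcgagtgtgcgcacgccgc
Gabrd: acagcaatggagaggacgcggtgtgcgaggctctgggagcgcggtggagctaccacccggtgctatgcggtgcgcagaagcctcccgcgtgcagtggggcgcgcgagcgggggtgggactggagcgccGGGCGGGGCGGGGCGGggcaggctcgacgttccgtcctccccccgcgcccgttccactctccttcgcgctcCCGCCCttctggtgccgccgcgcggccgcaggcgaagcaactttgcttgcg
The Gabra3 window was 40.4% G and C and held 0 CpG dinucleotides. The Gabra4 window was 71.6% G and C with 33 CpG, and the Gabrd window 74.0% with 35 CpG, against medians of 51.2% and 5 CpG over 33469 RefSeq windows of this length. The GC box letters occurred 1 time before Gabra4 and 4 times before Gabrd, 3 of the 4 overlapping their neighbours by 1 base, and did not occur before Gabra3. Of all windows, 30.5% held the GC box letters on either strand and 12.9% the TATA letters, which occurred before Gabra3, on the opposite strand, from -194 to -189 counted from the gene start. The cyclic AMP response letters TGACGTCA and the EGR letters GCGGGGGCG and GCGTGGGCG, present in 1.59%, 2.45% and 0.478% of windows, did not occur in these 3, nor did TGACG (18.2% of windows) or CACGTG (5.59%). These are matches of letters, and no binding was measured here. RefSeq windows matched 6 of the 7 subunits by symbol.

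The data hold a single comparison, RG2833 against untreated, and no subunit passed it. With edgeR's quasi-likelihood test, 0 of the 7 subunits and 0 of all 12161 genes (0%) had an adjusted p under 0.05; DESeq2 called 6 genes, none of them a subunit. At an unadjusted p under 0.05 there was 1 subunit of 7, Gabrb1, where the background was 5.66% of all genes. The CPM values of the groups overlapped for all 7 subunits, and did not overlap for 1% of all genes. Of the 7 subunits, 5 had a higher and 2 a lower fitted level in RG2833, with a median log2 fold change of 0.09 and a median size of 0.12; over all genes tested 46.5% were higher, the median was -0.01 and the median size 0.09.

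**Figure D1:**
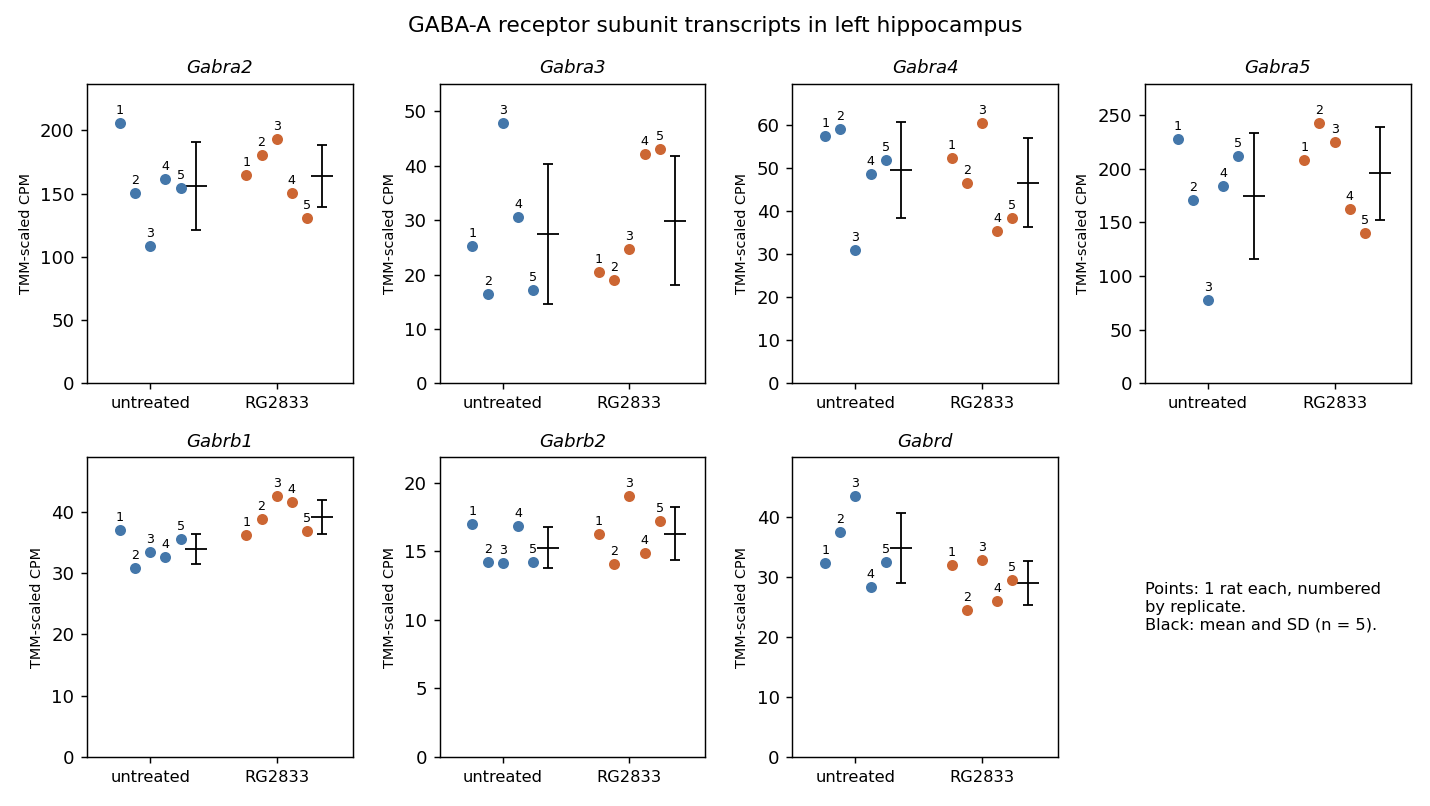
TMM-scaled CPM (y axis, from 0) of each subunit in untreated and RG2833 rats; each point is 1 rat, numbered by replicate, and the black mark and bar are the mean and SD of 5 rats. Gabra3 was highest and Gabra4 and Gabra5 lowest in untreated 3, RG2833 4 and RG2833 5, while Gabrb1 lay between 30.8 and 42.5 CPM in all 10 rats.

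Gabrb1 encodes the beta1 subunit; beta subunits form, together with alpha, the site where GABA binds. It was at 37.0, 30.8, 33.5, 32.6 and 35.6 CPM in untreated replicates 1 to 5 and at 36.3, 38.9, 42.5, 41.6 and 36.9 CPM in RG2833 replicates 1 to 5. All 5 RG2833 values lay above the untreated median and 3 lay above every untreated value; untreated 1, the highest of its group, overlapped with RG2833 1 and 5. The means were 33.9 ± 2.43 CPM untreated and 39.2 ± 2.77 CPM in RG2833 (SD, n = 5 each), a difference of 15.7% of the untreated mean. The log2 fold change was 0.21 (SE 0.07, 95% interval 0.06 to 0.36), with an unadjusted edgeR p of 0.0120 and an adjusted p of 0.841, so it did not pass. The exact permutation test of the CPM values (two-sided, unadjusted) gave p = 0.0238, where the smallest possible is 0.00794. By the size of its p, Gabrb1 stood at rank 138 of 12161 genes. Its unadjusted p was under 0.05 in all 24 alternative fits, from 0.00719 to 0.0473, and its adjusted p ranged from 0.315 to 1.00 over them. In the group comparison, 10 of 10 astrocyte markers had a higher fitted level in RG2833, 3 of them at an unadjusted p under 0.05. Their median log2 fold change was 0.33, and over all genes 46.5% were higher, with 2.94% higher at that p. Their summed level was 6912 to 10740 CPM untreated and 7980 to 11812 CPM in RG2833 (exact permutation p = 0.0952, adjusted 0.402 over 19 list sums, n = 5 each). No marker of that list was at 0. From rat to rat the sum and Gabrb1 ran together only in part. Both were lowest in untreated 2, but untreated 3, with the highest untreated sum, had the untreated median of Gabrb1. RG2833 5 had the highest sum of all and 36.9 CPM of Gabrb1. Endothelial markers were higher in 7 of 8 tested (median 0.28), and neuronal markers in 1 of 10 (-0.11). The part of these markers in the Gabrb1 difference was not tested.

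Gabrb2, the beta2 subunit found in many of the brain's synaptic receptors, had a narrow spread. It was at 17.0, 14.2, 14.1, 16.8 and 14.2 CPM in untreated and 16.3, 14.1, 19.0, 14.9 and 17.2 CPM in RG2833 replicates. RG2833 3 was the highest and RG2833 2 the lowest of all 10 rats. The log2 fold change was 0.09 (SE 0.10, 95% interval -0.13 to 0.31; edgeR adjusted p = 0.925). It ran from 0.032 without RG2833 3 to 0.14 without RG2833 2, and was 0.061 without the 2 libraries rich in choroid plexus markers.

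Gabrd, the delta subunit of extrasynaptic receptors, had the lowest p among the lower subunits. It was at 32.3, 37.5, 43.5, 28.4 and 32.6 CPM in untreated replicates and at 32.1, 24.5, 32.9, 26.1 and 29.5 CPM in RG2833 replicates. RG2833 2 and 4 lay below every untreated rat, each of the 5 RG2833 rats had less than the mean of the untreated, and untreated 3 was the highest of all. The means were 34.8 ± 5.79 and 29.0 ± 3.67 CPM (SD, n = 5 each). The fitted log2 fold change was -0.27 (SE 0.12, 95% interval -0.54 to 0.01). It did not pass (edgeR p = 0.0555 unadjusted and 0.841 adjusted; exact permutation p = 0.111). Without untreated 3 the log2 fold change was -0.17, and without untreated 3, RG2833 4 and RG2833 5 it was -0.14 (unadjusted p = 0.288), a change of size of over 1.5 times in both cases. Its unadjusted p was under 0.05 in 5 of 24 alternatives, with the lowest, 0.0211, without untreated 4. Dentate granule markers were lower in 6 of 7 tested, at a median log2 fold change of -0.12, where 6509 of all 12161 genes were lower. This was not particular to them: neuronal markers were lower in 9 of 10 (median -0.11) and thalamic markers in 6 of 8 (-0.27). CA1 markers were higher in 6 of 8 (0.13). The summed level of the dentate markers was 458 to 559 CPM untreated and 419 to 501 CPM in RG2833. The part of any of these lists in the Gabrd values was not tested. In untreated 3, where Gabrd was highest, the summed dentate markers were highest with Marcksl1 (559 CPM) and lowest without it (302 CPM, against 304 to 447 CPM in the other 9), a gene left out after its values were seen. Prox1 and C1ql2 were at their lowest there (4.30 and 7.10 CPM).

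The 4 alpha subunits differed more between rats of a group than between the groups. Gabra5, the alpha5 subunit of mostly extrasynaptic receptors on pyramidal cells, was at 228, 171, 77.4, 184 and 212 CPM in untreated and 208, 243, 225, 162 and 140.0 CPM in RG2833 replicates. Untreated 3 was lowest by a wide margin and RG2833 5 and 4 were the next lowest. The log2 fold change was 0.17 (SE 0.26, 95% interval -0.41 to 0.74; edgeR adjusted p = 0.958), and it turned to -0.02 without untreated 3.

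Gabra3, the alpha3 subunit, had the highest coefficient of variation of the 7 (SD over mean, 40.9% over the 10 libraries). It was at 25.3, 16.4, 47.9, 30.6 and 17.1 CPM in untreated and 20.5, 19.0, 24.7, 42.1 and 43.2 CPM in RG2833 replicates. Untreated 3, RG2833 5 and RG2833 4 were the 3 highest, and the next, untreated 4, was at 30.6 CPM. The log2 fold change was 0.12 (SE 0.34, 95% interval -0.62 to 0.87; edgeR adjusted p = 0.981). It was 0.42 without untreated 3 and below 0 in 4 of the 10 sets that left out a library, reaching -0.05 without RG2833 5.

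Gabra4, the alpha4 partner of delta, was at 57.2, 58.9, 30.9, 48.6 and 51.9 CPM in untreated and 52.3, 46.3, 60.4, 35.3 and 38.3 CPM in RG2833 replicates. The 3 lowest values were in the libraries that were highest in Gabra3. The log2 fold change was -0.09 (SE 0.19, 95% interval -0.51 to 0.33; edgeR adjusted p = 0.975), and it ran from -0.22 without untreated 3 to -0.0009 without RG2833 4.

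Gabra2, the alpha2 subunit of synaptic receptors on pyramidal cells, was at 206, 150.2, 109, 161 and 155 CPM in untreated and 165, 180.2, 193, 151 and 131 CPM in RG2833 replicates. Untreated 3 and RG2833 5 were the lowest and untreated 1 the highest. The log2 fold change was 0.07 (SE 0.16, 95% interval -0.28 to 0.42; edgeR adjusted p = 0.976), and it turned to -0.04 without untreated 3. The intervals of the 4 alpha subunits leave room for differences in either direction; the widest, that of Gabra3, runs from a fold of 0.649 to 1.82.

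**Figure D2:**
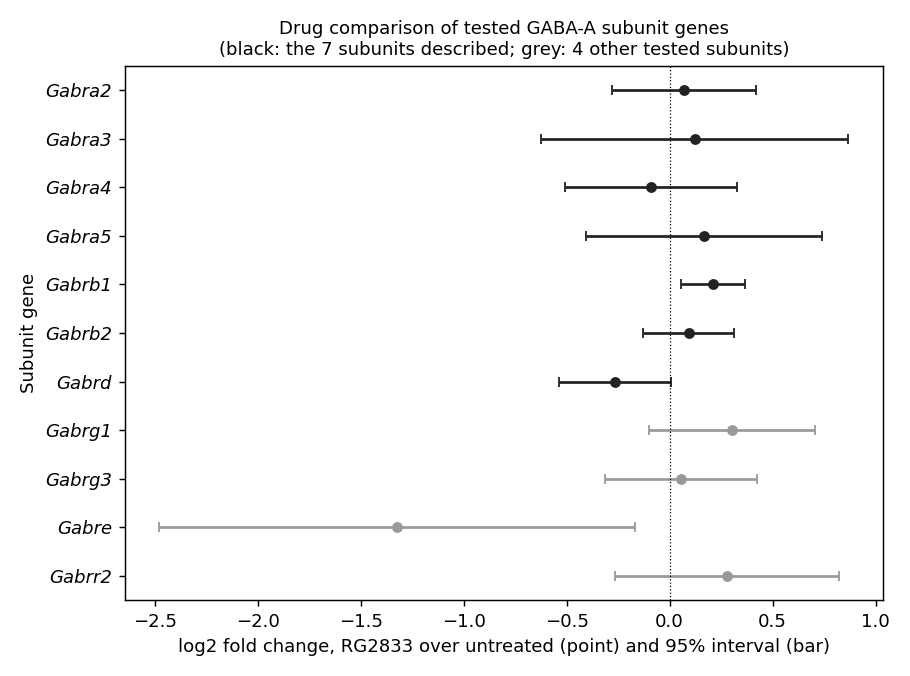
Log2 fold change of RG2833 over untreated (x axis) with its 95% interval for subunit genes (y axis), the 7 described subunits in black and Gabrg1, Gabrg3, Gabre and Gabrr2 in grey (4 of the 7 other tested subunits; the other 3 are not drawn). Among the 7, the interval of Gabrb1 (0.06 to 0.36) does not reach 0, that of Gabrd ends at 0.01 and the other 5 span 0; these intervals are not adjusted for the 12161 genes tested.

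The subunits differed in how much they varied between rats. Over the 10 libraries the coefficient of variation was 40.9% for Gabra3, 27.0% for Gabra5, 21.3% for Gabra4, 17.9% for Gabra2 and 17.3% for Gabrd, where counting alone would give from 1.79% for Gabra5 to 4.61% for Gabra3. It was 10.2% for Gabrb1 and 10.9% for Gabrb2, with 4.05% and 6.17% from counting. The counts behind these values ran from 237 reads for Gabrb2 in untreated 3 to 4281 reads for Gabra5 in RG2833 2. The highest rat was 3.14 times the lowest for Gabra5 and 2.92 times for Gabra3, against 1.38 times for Gabrb1 and 1.35 times for Gabrb2.

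Of 21 pairs of subunits, 5 had a correlation of log2 CPM with an adjusted permutation p under 0.05, and all 5 were pairs of alpha subunits. The sixth alpha pair, Gabra2 with Gabra3, did not pass (r = -0.572, permutation p = 0.0828, adjusted 0.250; rho = -0.370, p = 0.294); r was -0.438 without untreated 1 and 3, and 0.494 over the 7 libraries other than untreated 3, RG2833 4 and RG2833 5. Gabra2 and Gabra5 had Pearson r = 0.919 (permutation p = 7.0e-05, adjusted 0.0015) and Spearman rho = 0.915 (permutation p = 0.0003, adjusted 0.0071), and r was 0.889 without untreated 1 and 3. It is the only pair of the 21 that passed on both measures. Gabra4 had r = 0.792 with Gabra5 (permutation p = 0.0050, adjusted 0.0297; rho = 0.576, p = 0.0878) and r = 0.785 with Gabra2 (permutation p = 0.0062, adjusted 0.0297; rho = 0.612, p = 0.0663). Gabra3 had r = -0.822 with Gabra4 (permutation p = 0.0047, adjusted 0.0297; rho = -0.673, p = 0.0400) and r = -0.724 with Gabra5 (permutation p = 0.0071, adjusted 0.0297; rho = -0.600, p = 0.0738). Without the 2 libraries farthest from the median of one gene of the pair (untreated 3 with untreated 1, RG2833 4 or RG2833 5), r was 0.535 for Gabra4 with Gabra5, 0.567 for Gabra2 with Gabra4, -0.650 for Gabra3 with Gabra4 and -0.423 for Gabra3 with Gabra5. These 4 relations rest largely on untreated 3, RG2833 4 and RG2833 5: over the other 7 libraries r was -0.191, 0.242, -0.048 and 0.073 in the same order, while Gabra2 with Gabra5 had r = 0.741 (exact permutation p = 0.0587, n = 7).

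Gabra4 and Gabrd, partners in extrasynaptic receptors of the forebrain, did not vary together over all 10 libraries (r = -0.020, permutation p = 0.958; rho = 0.345, p = 0.333). Without untreated 3 and RG2833 4 r was 0.642. Over the 7 libraries other than untreated 3, RG2833 4 and RG2833 5, a set chosen after the data were seen, r was 0.849 (exact permutation p = 0.0083, adjusted 0.113 over the 21 pairs; n = 7), which did not pass. The reads of Gabrd per read of Gabra4 were 1.41 in untreated 3, 0.738 in RG2833 4, 0.771 in RG2833 5 and from 0.528 to 0.637 in the other libraries. That ratio holds both transcripts' lengths and is compared only between libraries. No pair passed after adjustment over those 7 libraries, where Gabra5 with Gabrb1 had r = 0.879 (exact permutation p = 0.0107, adjusted 0.113; n = 7).

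**Figure D3:**
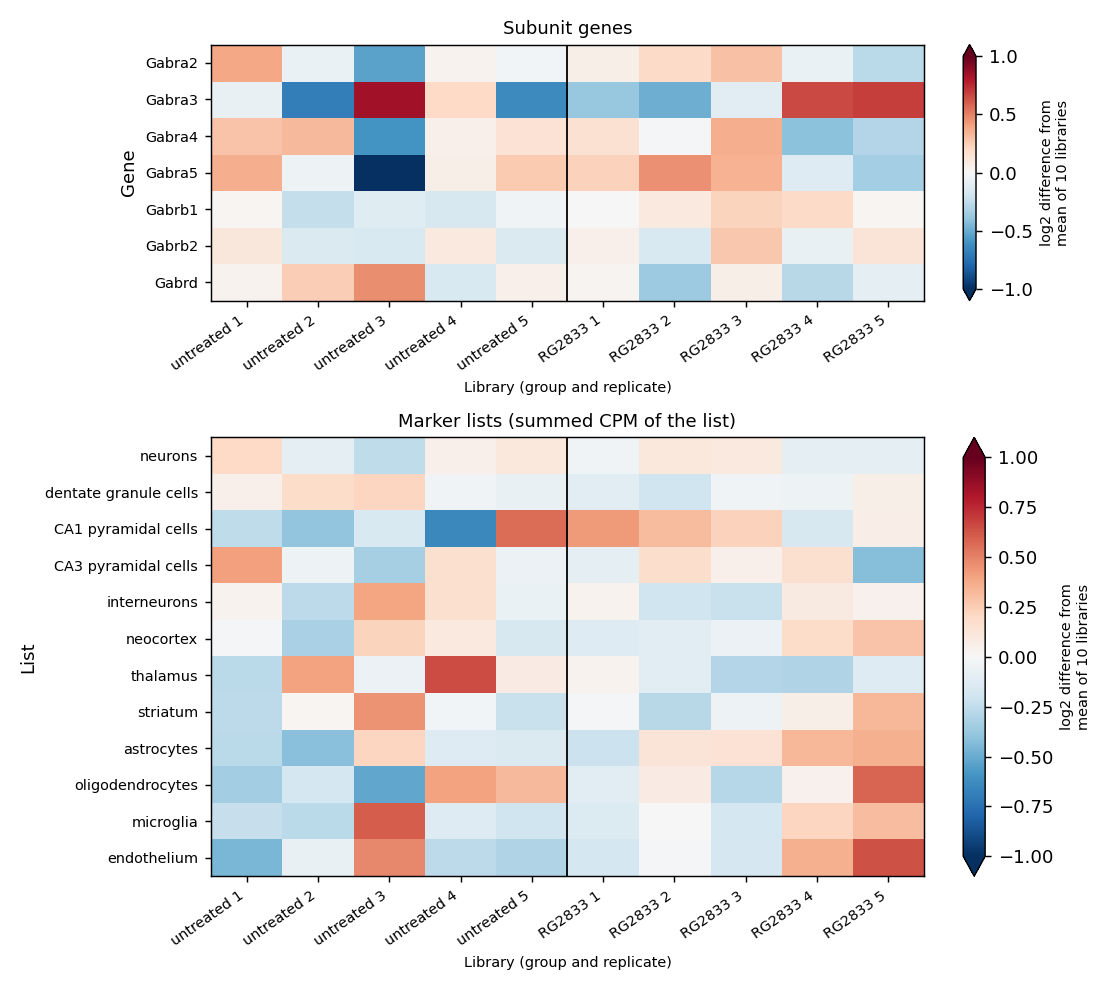
Log2 difference of each library (x axis) from the mean of the 10 libraries, for log2 CPM of the 7 subunits (upper panel) and for the log2 summed CPM of 12 marker lists (lower panel); red is above and blue below the mean, the colour scale ends at 1 in both directions, and the black line parts untreated from RG2833. Untreated 3 is deep blue for Gabra5 and deep red for Gabra3, and untreated 3, RG2833 4 and RG2833 5 have the 3 highest endothelial and microglial sums.

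Some marker lists were highest or lowest in untreated 3, RG2833 4 and RG2833 5, and others were not. The 3 highest summed levels of endothelial markers were in untreated 3 (455 CPM), RG2833 4 (416) and RG2833 5 (506), with 237 to 321 CPM elsewhere. The 3 highest sums of microglial markers were in the same libraries, at 1126, 857 and 914 CPM against 612 to 740 CPM. Those of neocortical markers were at 462, 449.8 and 483 CPM against 317 to 424 CPM, and those of astrocyte markers at 10740, 11641 and 11812 CPM against 6912 to 10223 CPM. The sums of 10 neuronal markers were the lowest there, at 6060, 6790 and 6796 CPM, with untreated 2 next at 6797 CPM and the rest up to 8311 CPM. The share of ribosomal RNA names in the counts was 11.4% in untreated 3, 9.37% in RG2833 4 and 8.92% in RG2833 5, and from 4.07% to 8.71% elsewhere. The 3 highest sums of striatal markers were there too, at 368, 282 and 340 CPM against 223 to 273 CPM, as were those of the GABA synthesis, release and uptake list, at 1310.0, 1425 and 1333 CPM against 878 to 1222 CPM. The mean log2 CPM of the CA3 list was lowest there, at 3.39, 3.86 and 3.69 against 4.02 to 4.31, while its sum was not, since Nnat held 725 of the 985 CPM in RG2833 4. The summed CA1, dentate, oligodendrocyte and interneuron markers did not set these 3 libraries apart; their CA1 sums were 770.5, 767 and 899.8 CPM, within the 549.6 to 1266 CPM of the rest. What part regional makeup, cell makeup or RNA handling has in the alpha subunit values was not tested.

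The makeup of the alpha transcripts is given as shares of the summed CPM of Gabra2 to Gabra5. Gabra2 held 38.5% ± 2.11 of that sum in untreated and 37.6% ± 0.845 in RG2833 rats (SD, n = 5 each), and its share lay between 35.5% and 41.0% in all 10 libraries. Gabra5 held 41.7% ± 7.33 and 44.5% ± 3.99, Gabra4 12.2% ± 1.52 and 10.6% ± 1.32, and Gabra3 7.65% ± 5.98 and 7.29% ± 3.92. The means differed by less than the larger SD for Gabra2, Gabra3 and Gabra5 and by slightly more than it for Gabra4; no test was run on shares. In untreated 3 the share of Gabra3 was 18.1% and that of Gabra5 29.2%, against 3.92% to 7.20% and 43.1% to 48.7% in the other untreated rats. RG2833 4 and 5 had Gabra3 shares of 10.8% and 12.3%, against 3.89% to 4.90% in the other RG2833 rats.

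**Figure D4:**
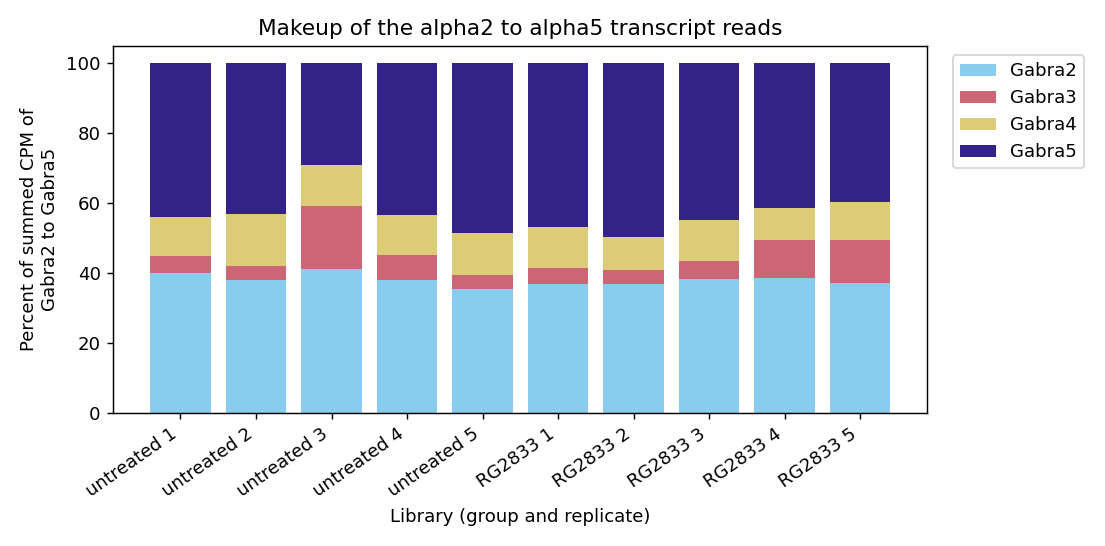
Percent of the summed CPM of Gabra2, Gabra3, Gabra4 and Gabra5 (y axis, from 0) taken by each of the 4 in each library (x axis). The Gabra3 band is widest in untreated 3 (18.1%), RG2833 5 (12.3%) and RG2833 4 (10.8%), while the Gabra2 band stays between 35.5% and 41.0%.

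For each subunit, the 2 transcripts most like it over the 10 libraries were found by Pearson r of log2 CPM among 10054 tested genes with a mean of at least 5 CPM. Being picked as the highest of so many, these values are descriptions. Gabra2 was most like Camsap2 (r = 0.986, rho = 1.00) and Nrcam (r = 0.982, rho = 0.952), and Gabra5 was most like Ermp1 (r = 0.991, rho = 0.988) and Kcnn2 (r = 0.988, rho = 0.903). Gabra4 was most like Tnks2 (r = 0.989, rho = 0.988) and Lrp12 (r = 0.986, rho = 0.976), and Gabra3 was most like Atp2b4 (r = 0.986, rho = 1.00) and Rap1gap2 (r = 0.977, rho = 0.964). Kcnn2 encodes a small-conductance calcium-activated potassium channel and Atp2b4 a plasma membrane calcium pump. For these 8 the permutation p of r was 1e-05, the smallest that 100000 resamples can give, and r stayed at 0.940 or above without the 2 farthest libraries. Likeness was lower for the rest: Gabrb1 with Npas1 (r = 0.933, rho = 0.891) and Nsmf (r = 0.914, rho = 0.903), Gabrb2 with Xpo7 (r = 0.905, rho = 0.818) and Ogfod1 (r = 0.858, rho = 0.879), and Gabrd with Pan2 (r = 0.922, rho = 0.891) and Dhx16 (r = 0.916, rho = 0.879). For these 6 the permutation p of r was at most 0.00025, and r without the 2 farthest libraries ran from 0.760 to 0.895.

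Genes of the family lie in clusters, and values are given here for 1 of them. In the RefSeq order, Gabrb1, Gabra4, Gabra2 and Gabrg1 are neighbouring subunit genes on 1 chromosome. Of these, Gabra4 and Gabra2 were low in untreated 3, while Gabrg1, the gamma1 subunit, was at 64.8 CPM there, 69.4 in RG2833 4, 68.4 in RG2833 5 and from 32.2 to 59.2 CPM elsewhere. Gabrb1 and Gabra4, next to each other, had r = -0.039 (permutation p = 0.915; rho = 0.030, p = 0.946).

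Of 12 other GABA-A subunit genes in the table, 7 were tested, and 0 passed with edgeR's adjusted p. Gabre, the epsilon subunit, was the only one of the 7 at an unadjusted p under 0.05: it was at 0.750, 2.61, 1.01, 4.04 and 1.03 CPM in untreated and 0.387, 0.738, 0.448, 0.877 and 1.31 CPM in RG2833 replicates. Its log2 fold change was -1.32 (SE 0.52; edgeR adjusted p = 0.841; exact permutation p = 0.0952), from 6.45 to 65.96 expected counts per library. Its unadjusted edgeR p was under 0.05 in 16 of 23 alternatives. The fold change was -0.85 without untreated 4, the highest rat, and -1.02 without the 2 libraries rich in choroid plexus markers, and in both cases the unadjusted edgeR p (0.0943 and 0.121) was over the threshold, as it was without untreated 2, RG2833 1, RG2833 2 or RG2833 3 and in limma-voom. The 2 highest Gabre values, in untreated 4 and untreated 2, were in the libraries with the 2 highest sums of thalamic markers. Those sums were 139 and 117 CPM, against 71.7 to 93.6 CPM in the other libraries. The part of thalamic or choroid plexus RNA in the Gabre values was not tested. Gabra6, Gabrp, Gabrq, Gabrr1 and Gabrr3 did not pass the filter on low counts.

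Beyond the subunits, the lists of GABA genes held few candidates. Of 54 tested genes in 6 lists (other subunits, scaffold and trafficking, synthesis and uptake, GABA-B receptors, chloride handling, modulators), 29 were higher and 25 lower in RG2833, with a median log2 fold change of 0.01. At an unadjusted p under 0.05 there was 1 higher and 1 lower gene, where the background was 2.94% higher and 2.71% lower of all genes, and 0 passed adjustment. The higher gene was Iqsec3, a partner of gephyrin at inhibitory synapses, with 466, 369.8, 567, 473 and 469 CPM in untreated and 510.0, 574, 651, 717 and 687 CPM in RG2833 replicates. Of the RG2833 rats, 4 lay above every untreated rat and RG2833 1 lay below untreated 3. Its log2 fold change was 0.42 (SE 0.13, 95% interval 0.14 to 0.70; edgeR p = 0.00661, adjusted 0.841; exact permutation p = 0.0159). Summed astrocyte markers moved with it: both were lowest in untreated 2 (6912 CPM of astrocyte markers) and had their 2 highest values in RG2833 4 and 5 (11641 and 11812 CPM). Their part in the Iqsec3 difference was not tested. The count of such genes moved with the libraries used, to 11 without untreated 3, 7 without RG2833 1, and 1 without RG2833 2 or RG2833 3.

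In the lists of the other steps of GABA signalling no gene passed edgeR's adjusted p. In the scaffold and trafficking list, 12 of 21 were higher and 9 lower, with Gphn (gephyrin, the main scaffold) at -0.04 on the log2 scale (95% interval -0.28 to 0.20) and log2 fold changes from -0.14 to 0.42. The summed level of that list was 3954 to 4343 CPM untreated and 4210.0 to 4540.5 CPM in RG2833, with overlapping groups (exact permutation p = 0.0397, adjusted 0.402 over the 19 list sums; n = 5 each). Without Iqsec3, left out after its values were seen, it was 3585 to 3870.4 CPM untreated and 3700.1 to 3860.4 CPM in RG2833 (exact permutation p = 0.381). In the list of synthesis, release and uptake, 4 of 8 were higher and 4 lower, with a median size of 0.25 on the log2 scale against 0.09 over all genes. The lowest, Slc6a13 at -0.94, was at 18.9 CPM in untreated 2 and from 2.31 to 5.13 CPM in the other 9 libraries. Untreated 2 is rich in choroid plexus markers, and so is RG2833 1, where Slc6a13 was at 3.03 CPM. The remaining 7 ran from -0.18 (Slc32a1) to 0.35 (Slc6a11). The GABA-making enzymes Gad1 and Gad2 were at -0.10 (-0.43 to 0.22) and -0.11 (-0.45 to 0.23), and without the 2 libraries rich in choroid plexus markers at -0.24 and -0.23. For chloride handling, 6 of 10 were higher and 4 lower. The exporter Slc12a5, which keeps chloride low in mature neurons, was at -0.04 (-0.19 to 0.11) and the importer Slc12a2 at 0.11 (-0.41 to 0.62). The GABA-B list had 2 of 4 higher and the list of modulators 2 of 4. Of Gphn, Gad1, Gad2, Slc12a5 and Slc12a2, the sign of the log2 fold change turned without 1 library for Gphn, Gad1 and Slc12a2. For Slc6a13, Slc32a1 and Slc6a11 this was not examined.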

How the data were processed

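Per the labels' protocols, an RNeasy kit gave the RNA and a Kapa kit the stranded mRNA libraries. The submitters' processing notes list bcl2fastq 2.17, Bowtie2 2.1.0, RSEM 1.2.15, edgeR and the build rn6, with no role or order. The authors deposited expected counts per gene (RSEM estimates, 11.6% of values not whole) and a table of signal, TMM-scaled CPM; in the latter 100% of values above 0 lay within 0.01 reads of a whole read, and a count test on those reads called 0 genes.

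The fit used edgeR 4.0.16 (R 4.3.3) on rounded expected counts: filterByExpr (minimum count 10, minimum total 15), TMM, robust quasi-likelihood F test, Benjamini-Hochberg adjustment over 12161 genes, threshold 0.05. Log2 CPM used a prior count of 2. Exact permutation tests used all 252 regroupings of 5 and 5 libraries, and correlations 100000 resamples. Library totals, from 15118203 to 18533520, limit precision only by counting; intervals are at 95%. P-values measure the spread between these samples, which the labels describe as separate rats. The lowest chi-square per gene over 45 pairs of libraries was 7.40, so none was counted as a repeat. The fit was tested on simulated data. Genes and lists were chosen with earlier results of these data known; all 7 subunits were named, and of 6 GABA lists each gene at an unadjusted p under 0.05 plus 9 fixed genes, of which 4 are not reported here. Alternatives were DESeq2 1.42.0, limma-voom 3.58.1 with and without sample weights, other scalings and filters, ribosomal RNA names removed, a replicate block and left-out libraries. Promoters and gene order came from RefSeq GRCr8, used only for these.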

Additional observations from a re-analysis of the deposited data

Results flagged for a closer look

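Within each group of 5 libraries, the highest or lowest value is given here where the gap that parts it from its neighbour was over 0.71 of the group's range (Dixon's limit at 95%). Of 62 sets of 5 values (named genes, alpha shares and marker sums), 6 did so, where chance, at about 1 in 20, gives about 3.1. Untreated 3 accounted for 3: a Gabra3 share of the alpha reads of 18.1% against 3.92% to 7.20% in the other untreated rats, a Gabra5 share of 29.2% against 43.1% to 48.7%, and summed microglial markers of 1126 CPM against 612 to 674. Untreated 2 had a Gabra4 share of 14.9% against 11.1% to 11.9%. Choroid plexus markers summed to 8113 CPM in untreated 2 against 28.7 to 287 in its group, and to 9498 CPM in RG2833 1 against 9.41 to 94.6.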

How the results depend on the processing

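No subunit had an adjusted p under 0.05 in any of 24 alternatives, and the signs of Gabra4, Gabrb1, Gabrb2 and Gabrd held in all of them. The number of genes called was 0 in 23 alternatives and 6 in DESeq2. The number of genes at an unadjusted p under 0.05, 688 at first, was 1263 with sample weights and from 375 (without RG2833 4; 424 without RG2833 5) to 1732 (without untreated 3) with a library left out. For the other GABA genes, 2 at first, it was 4 in DESeq2, 1 in limma-voom, 8 with sample weights, 1 with at least 1 CPM in 5 libraries, 4 without the 2 choroid plexus libraries, 4 without untreated 3, RG2833 4 and RG2833 5 (chosen after seeing the data), and from 1 to 11 with a library left out. The 1 CPM filter left out Gabre. With a library left out the log2 fold change ran from -0.036 to 0.19 for Gabra2, -0.046 to 0.42 for Gabra3, -0.021 to 0.28 for Gabra5, -0.22 to -0.0009 for Gabra4, 0.032 to 0.14 for Gabrb2, -0.21 to -0.0082 for Gad2, -0.074 to -0.018 for Slc12a5, -0.12 to 0.022 for Gphn, -0.21 to 0.012 for Gad1 and -0.096 to 0.27 for Slc12a2. Without untreated 3, RG2833 4 and RG2833 5 that of Slc12a5 was 0.016. The subunit values there were 0.090 for Gabra2, -0.067 for Gabra3, -0.034 for Gabra4, 0.18 for Gabra5, 0.20 for Gabrb1 and 0.077 for Gabrb2. Without untreated 2 and RG2833 1 they were 0.046 for Gabra2, 0.086 for Gabra3, -0.071 for Gabra4 and 0.13 for Gabra5. Gabrb1 was then at 0.20 and Gabrd at -0.28. The exact permutation p with a library left out ran from 0.254 to 0.984 for Gabra2, 0.294 to 0.992 for Gabra3 and 0.357 to 0.897 for Gabra5; that of Gabrd was 0.0476 on unscaled CPM. The causes were not tested. The same replicate numbers occur in both groups, but same-numbered rats did not deviate together (correlations -0.49 to -0.03, and 0 of 5 untreated libraries correlated best with its own number); with a replicate block, 401 genes had an unadjusted p under 0.05, 0 passed, and Gabrd had p = 0.0425 (adjusted 0.999).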
